A study of Mus musculus with 19 samples.

Results

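The 7 genes described here, Fos, Fosb, Fosl1, Fosl2, Jun, Junb and Jund, encode the Fos and Jun proteins of the AP-1 transcription factor, and were taken by symbol from a count table of 20938 genes. All 7 were in the table, and 6 of them were among the 16417 genes with enough counts to be tested. Fosl1 was not, with 0 to 16 counts a library. The 19 libraries were made from RNA of the mouse left prelimbic cortex. The 6 Control mice received saline, and the 4 SCZ mice MK-801, which blocks the NMDA-type glutamate receptor and is used to model schizophrenia, at 0.2 mg/kg into the peritoneum each day for 2 weeks. The 5 Control+c-MSST and 4 SCZ+c-MSST mice had the same injections of saline or MK-801 and also c-MSST. In c-MSST, ferumoxytol (γ-Fe2O3 nanoparticles) is injected once into the left prelimbic cortex by stereotactic surgery, and the awake mouse is then put in a pulsed magnetic field. Tissue was taken on day 3 after surgery. The labels do not say whether Control and SCZ mice had surgery, so c-MSST cannot be told apart from surgery and injection if they had none. Strain, sex, age, batch and the hour of tissue collection are not given in the labels. All mice lived on a 12-hour light-dark cycle.

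AP-1 is a dimer. Fos proteins dimerise with Jun proteins, and Jun proteins also pair with each other, through leucine zippers, and the dimers bind short DNA elements in promoters and enhancers. In neurons, Fos, Fosb and Junb are immediate early genes: calcium entry through NMDA receptors and voltage-gated channels activates CREB and SRF at their promoters within minutes, and their messages decay quickly. Jun is also induced by stress kinases, and JunD is present in resting cells. FosB also has a truncated, long-lived splice form, ΔFosB, which a count per gene cannot separate from the full-length form.

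CREB binds the cyclic AMP response element (CRE), whose core is TGACG. The promoters of Fos, Fosb, Junb, Jun and Fosl2, the 5 tested members with the largest SD within groups, are printed to show which hold this core and which do not. Each line gives the 150 bases before the RefSeq start of the gene (GRCm38.p6), 5′ to 3′ on the gene's own strand, with matches to TGACG or TGACNTCA in capitals.
Fos, chr12:85473740-85473889, plus strand: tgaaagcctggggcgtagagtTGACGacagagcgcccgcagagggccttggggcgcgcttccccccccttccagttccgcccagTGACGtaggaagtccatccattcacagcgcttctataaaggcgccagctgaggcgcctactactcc
Fosb, chr7:19310046-19310195, minus strand: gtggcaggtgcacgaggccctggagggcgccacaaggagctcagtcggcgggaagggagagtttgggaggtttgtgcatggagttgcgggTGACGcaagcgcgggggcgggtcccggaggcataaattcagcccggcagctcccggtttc
Junb, chr8:84978749-84978898, minus strand: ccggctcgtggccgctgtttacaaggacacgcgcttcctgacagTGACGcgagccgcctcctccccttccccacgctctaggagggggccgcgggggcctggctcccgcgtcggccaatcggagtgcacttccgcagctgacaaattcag
Jun, chr4:95052223-95052372, minus strand: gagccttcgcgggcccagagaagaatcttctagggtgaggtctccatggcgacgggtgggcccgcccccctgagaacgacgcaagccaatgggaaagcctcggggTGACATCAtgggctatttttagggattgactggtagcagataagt
Fosl2, chr5:32136322-32136471, plus strand: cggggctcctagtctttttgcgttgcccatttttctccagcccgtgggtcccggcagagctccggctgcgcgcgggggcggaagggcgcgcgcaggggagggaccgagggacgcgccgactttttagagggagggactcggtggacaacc

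RefSeq promoters were found for 6 of the 7 genes, and each was searched on both strands over the 250 bases before the start. TGACG was found at 129 and 66 bases before the start of Fos, 60 before that of Fosb and 106 before that of Junb. Of 32851 promoters, 17.8% held it. Jun held TGACATCA, 45 bases before its start, a match to TGACNTCA, which 7.49% of promoters held. TGACNTCA contains no TGACG unless its open base is G, so the searches can overlap. The AP-1 element TGACTCA, in 4.46% of promoters, and the CArG box bound by SRF, in 1.47%, had no match in any of the 6 windows. Bases farther than 250 before the start were not searched, so motifs there would have been missed. The windows of Fosl2 and Jund held none of these 4 motifs, and Jun held no TGACG. The RefSeq start of Jund lies 1210 bases before the GENCODE start of the gene, and that of Fosl2 lies 671 bases inside the GENCODE gene, so these 2 windows do not adjoin the gene coordinates given below. For the other 4 genes the starts differ by at most 30 bases. A TATA box, TATAAA, stood 33 bases before the start of Fos, and 12.4% of promoters had this motif. CCAAT was found in Jun and Junb and in 33.9% of promoters.

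The genes lie apart in the genome (GRCm38, GENCODE M21). Fos is at chr12:85473890-85477273 on the plus strand, Fosb at chr7:19302696-19310051 on the minus strand, Fosl1 at chr19:5447547-5455946 on the plus strand and Fosl2 at chr5:32135801-32157842 on the plus strand. Jun is at chr4:95049034-95052222 on the minus strand, Junb at chr8:84974484-84978718 on the minus strand and Jund at chr8:70698949-70700616 on the plus strand. Genes on the other strand overlap 4 of them: Junos overlaps Jun, Prdx2 overlaps Junb, Gm11175 overlaps Jund and Ccdc85b overlaps Fosl1. The sources used here do not say whether strand was used in counting, so the reads of these pairs may not have been kept apart.

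Library totals ran from 50140626 to 66818266 counts in Control, 60577337 to 72866386 in Control+c-MSST, 65498768 to 82416746 in SCZ and 66828543 to 75090222 in SCZ+c-MSST. Levels below are CPM, that is, counts scaled to the library size after TMM adjustment. The labelled tissue was checked against 6 markers of excitatory cortical neurons, none of which was at 0 in any library. Their summed level was 1865 to 2639 CPM in Control, 2317 to 2648 in Control+c-MSST, 1580 to 1992 in SCZ and 1969 to 2404 in SCZ+c-MSST. Markers of neighbouring regions also varied. The 8 striatal neuron markers, none at 0 in any library, summed to 212 to 1964 CPM in Control, 306 to 1639 in Control+c-MSST, 1531 to 2172 in SCZ and 1026 to 2567 in SCZ+c-MSST. The 6 septal markers, of which Lhx8 was at 0 in at least 1 library, summed to 58.5 to 146, 58.6 to 64.4, 59.1 to 133 and 52.9 to 70.3 CPM in the same order. Of the 8 choroid plexus and ependymal markers, Ttr, Folr1 and Prlr were at 0 in at least 1 library. The 8 summed to 245 to 2644 CPM in Control, with a median of 273, and to at most 269 CPM in the other groups.

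Fos, the founding member of the family and a common marker of recent neuronal firing, had its lowest mean in SCZ. In Control its level was 9.11 CPM at the lowest, 20.5 at the median and 28.0 at the highest, a mean of 20.4 ± 6.68 CPM (SD, n = 6). The 5 Control+c-MSST libraries stood at 28.4, 9.36, 16.9, 28.6 and 17.3 CPM (replicates 1, 2, 4, 6 and 7), a mean of 20.1 ± 8.29 (SD, n = 5). The 4 SCZ libraries stood at 5.99, 13.9, 11.8 and 10.3 CPM (replicates 1, 2, 3 and 5), a mean of 10.5 ± 3.34 (SD, n = 4). All 4 SCZ libraries were below every Control library but replicate 5, so the groups overlapped through that library. The SCZ+c-MSST libraries stood at 15.8, 12.5, 25.5 and 23.8 CPM (replicates 2, 3, 4 and 5), a mean of 19.4 ± 6.25 (SD, n = 4). The lowest of these was under the highest SCZ library. The other 3 group means differed from each other by less than their SDs.

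Fosb, whose splice form ΔFosB accumulates in neurons under repeated stimulation, had a narrower spread of group means. It ran from 7.46 to 21.7 CPM in Control, with a median of 13.3 and a mean of 13.7 ± 4.80 (SD, n = 6). In Control+c-MSST it stood at 19.02, 9.22, 16.9, 19.9 and 12.0 CPM, a mean of 15.4 ± 4.63 (SD, n = 5). It stood at 9.69, 9.40, 13.5 and 10.5 CPM in SCZ (10.8 ± 1.87, SD, n = 4). In SCZ+c-MSST it stood at 15.0, 10.3, 15.4 and 15.0 CPM (13.9 ± 2.41, SD, n = 4). All 4 groups overlapped, and each gap between neighbouring means was smaller than the larger SD of the pair. The lowest library of all was Control replicate 5, and the highest was Control replicate 1.

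Fosl2, which encodes Fra-2, a Fos-related protein without the strong activation domain of Fos, was spread most widely in Control. There it stood at 67.5, 92.9, 107.7, 62.6, 37.4 and 40.7 CPM (replicates 1, 2, 3, 4, 5 and 7), a mean of 68.1 ± 28.0 (SD, n = 6). Replicates 2 and 3 were above every other library of the series. In Control+c-MSST it stood at 76.5, 35.4, 63.3, 55.9 and 40.4 CPM (54.3 ± 16.8, SD, n = 5). In SCZ the values were 32.7, 46.1, 45.4 and 42.6 CPM (41.7 ± 6.17, SD, n = 4), and in SCZ+c-MSST 65.0, 45.9, 70.6 and 73.6 CPM (63.8 ± 12.4, SD, n = 4). SCZ overlapped SCZ+c-MSST only through replicate 3 of the latter, at 45.9 CPM.

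Fosl1, which encodes the Fos-related protein Fra-1, was at the limit of detection. It had 0, 4, 3, 13, 12 and 8 counts in the Control libraries, 3, 5, 10, 0 and 5 in Control+c-MSST, 4, 0, 0 and 16 in SCZ and 0, 7, 8 and 4 in SCZ+c-MSST. By counting error alone, a 0 allows up to 3 counts, or 0.0407 to 0.0620 CPM in the libraries at 0. Every group held a library at 0, and Fosl1 was not tested.

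Jun, the Jun protein first described and a partner of the Fos proteins, had its lowest mean and smallest SD in SCZ. As a share of the mean, the SD was 9.65% in SCZ and 8.68% in SCZ+c-MSST. In Control it stood at 63.0, 75.0, 72.1, 47.0, 42.4 and 37.0 CPM (56.1 ± 16.1, SD, n = 6), with the same replicates 2 and 3 at the top as for Fosl2. Control+c-MSST values were 66.4, 41.2, 52.3, 44.5 and 49.2 CPM (50.7 ± 9.76, SD, n = 5). SCZ values were 39.7, 45.6, 38.8 and 36.4 CPM (40.1 ± 3.87, SD, n = 4), inside or just below the Control range. The SCZ+c-MSST values of 51.6, 48.3, 57.1 and 58.2 CPM (53.8 ± 4.67, SD, n = 4) were all above the SCZ values.

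Junb, an immediate early Jun protein and a weaker activator than Jun, separated SCZ from SCZ+c-MSST in the same way. In SCZ it stood at 17.4, 25.9, 27.3 and 26.3 CPM (24.2 ± 4.62, SD, n = 4), and in SCZ+c-MSST at 31.7, 35.9, 52.3 and 46.2 CPM (41.5 ± 9.42, SD, n = 4). Control libraries ran from 23.4 to 43.8 CPM, with a median of 34.9 and a mean of 35.3 ± 7.57 (SD, n = 6). Control+c-MSST libraries stood at 37.5, 23.6, 33.5, 51.6 and 39.8 CPM (37.2 ± 10.2, SD, n = 5). SCZ overlapped Control only through Control replicate 5.

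Jund, the member present in resting cells, had the smallest spread and a different order of groups. Its mean was lowest in Control, at 69.1 ± 4.00 CPM (SD, n = 6; 62.8 to 74.0, median 68.9). The other 3 means lay within 1 SD of each other, at 75.4 ± 4.40 in Control+c-MSST (n = 5), 76.5 ± 5.07 in SCZ (n = 4) and 75.2 ± 1.61 CPM in SCZ+c-MSST (n = 4). SCZ libraries stood at 73.3, 84.0, 75.1 and 73.7 CPM and SCZ+c-MSST libraries at 76.4, 73.9, 73.8 and 76.8 CPM. Control+c-MSST libraries stood at 78.5, 67.6, 77.4, 77.0 and 76.3 CPM.

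**Figure D1:**
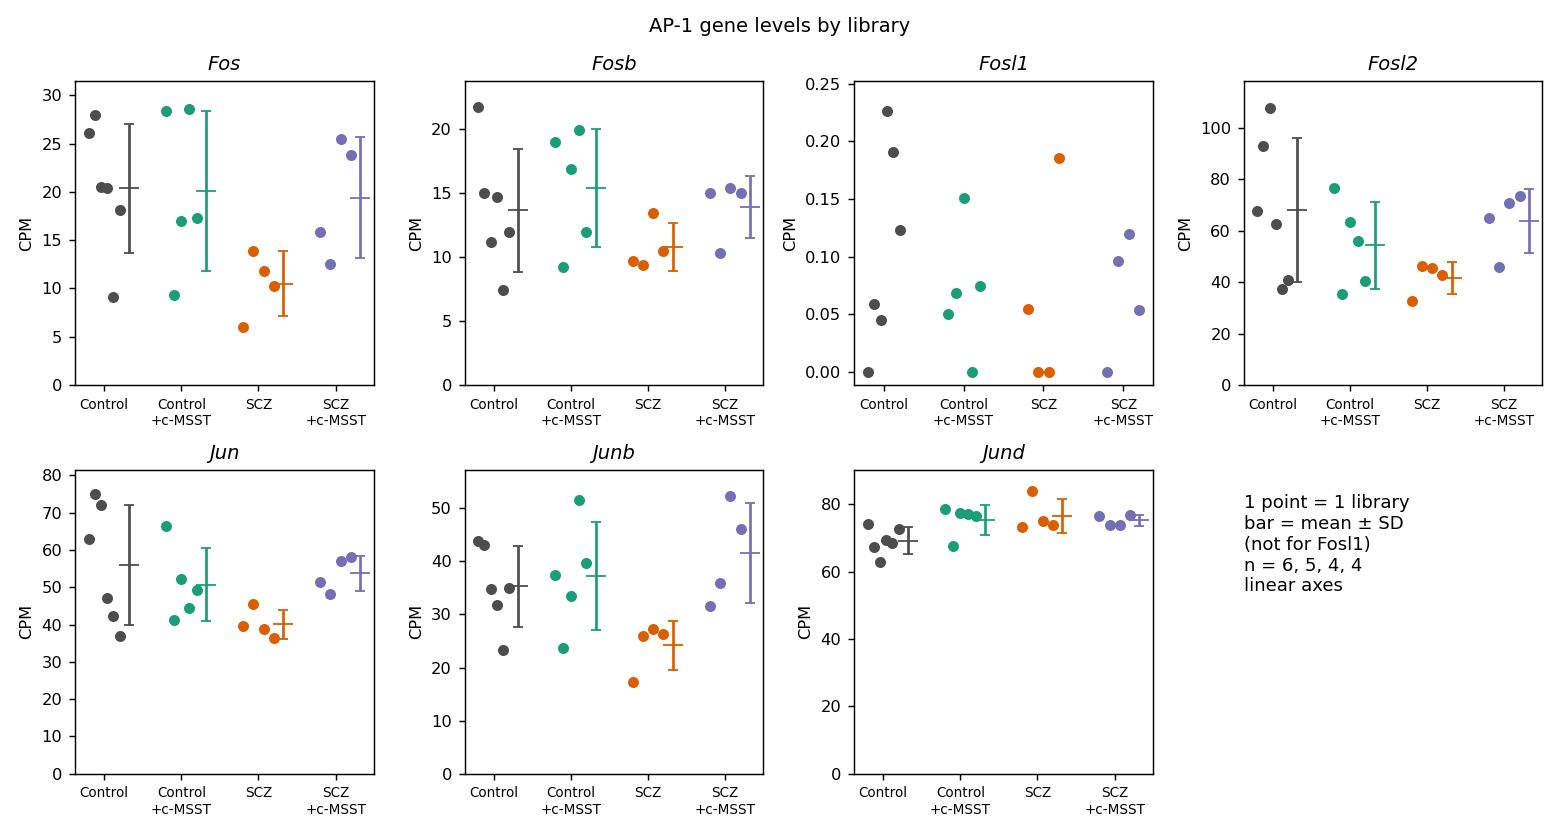
Level of each AP-1 gene in CPM (linear axis, 1 panel a gene) in each of the 19 libraries, by group; each point is 1 library and the bars give the mean and SD, except for Fosl1. Junb and Jun in SCZ lie wholly below SCZ+c-MSST, while Jund varies little in any group.

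Levels of different genes can be compared only per length, and the order depends on the gene model. As CPM per kilobase of annotated exon, the Control means were 41.4 for Jund, 17.6 for Jun, 15.3 for Junb, 8.67 for Fos, 7.04 for Fosl2, 2.19 for Fosb and 0.0529 for Fosl1. In the deposited FPKM, which is also per length, the Control means were 16.2 for Fosl2, 10.9 for Jun, 6.67 for Fos, 3.92 for Junb, 2.27 for Jund, 1.29 for Fosb and 0.0183 for Fosl1. Fosb and Fosl1 were lowest on both scales. Jund was highest on the first scale and below Junb on the second. The length implied by the FPKM of Jund was 18.005 times its annotated exons. For the other members it was 3.86 times for Junb, 2.95 for Fosl1, 1.67 for Fosb, 1.60 for Jun, 1.29 for Fos and 0.435 for Fosl2. Counts and FPKM thus rest on unlike gene models for several members, and the reason was not tested. The lengths used for FPKM are not given in the sources used here.

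Comparison of SCZ with Control addresses the effect of MK-801 without c-MSST. Of the 6 tested members, 5 had lower and 1 had higher fitted levels in SCZ, and none passed edgeR's quasi-likelihood test after Benjamini-Hochberg adjustment, where 0% of all tested genes passed. At an unadjusted p under 0.05, 4 members (Fos, Fosl2, Jun and Junb) were lower, against 7.43% of all genes, and 1 (Jund) was higher, against 6.09%. DESeq2 and limma voom also called 0 members after adjustment, with 5 and 2 at an unadjusted p under 0.05. Voom was run with quality weights per library, here and below. The ranges of SCZ and Control overlapped for all 6, where 1.25% of genes lay wholly lower and 1.60% wholly higher. The median log2 fold change of the 6 was -0.51, and that of all genes 0.00. Fewer cells of a type and less RNA per cell cannot be told apart in such bulk tissue.

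Among the Fos proteins, Fos had a log2 fold change of -0.96 (SE 0.35, edgeR adjusted p = 0.252) and Fosl2 of -0.71 (SE 0.29, edgeR adjusted p = 0.291). Fosb had -0.34 (SE 0.25, edgeR adjusted p = 0.591). Among the Jun proteins, Junb had -0.54 (SE 0.21, edgeR adjusted p = 0.280) and Jun -0.48 (SE 0.18, edgeR adjusted p = 0.260). Jund went the other way, at 0.15 (SE 0.053, edgeR adjusted p = 0.245).

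Several other measures moved with this difference, and their part in it was not tested beyond the fits given here. All 6 excitatory neuron markers were negative in SCZ against Control (median log2 fold change -0.34), all 8 striatal markers were positive (1.13) and all 8 choroid plexus and ependymal markers were negative (-1.04). At an unadjusted p under 0.05, 2 of the 6 excitatory markers and 3 of the 8 choroid plexus markers were lower. Higher at that p were 1 of 8 striatal, 3 of 6 endothelial and 3 of 6 inhibitory neuron markers. The summed inhibitory markers ran from 580 to 780 CPM in Control and 754 to 879 in SCZ, and the endothelial markers from 201 to 217 and 228 to 250, with none of either list at 0 in any library. With the excitatory neuron score of each library in the model, 2 members had an unadjusted p under 0.05, Fosl2 at -0.89 and Jund at 0.23, and Fos stood at -0.86. With scores of the striatal, septal and choroid plexus markers in the model, 0 members did, and Fos stood at -0.91, Junb at -0.39, Fosl2 at -0.42 and Jun at -0.29. Control replicates 2 and 3 were the 2 highest libraries for Fosl2 and Jun. Without them 0 members had a p under 0.05, and the log2 fold changes were -0.81 for Fos, -0.47 for Junb, -0.32 for Fosl2 and -0.24 for Jun. Without SCZ replicate 1, the lowest library for Fos, Fosl2 and Junb, the count of members was 2. Without SCZ replicate 2, the highest library for Jund, the unadjusted p of Jund was above 0.05.

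Comparison of SCZ+c-MSST with SCZ addresses c-MSST in mice given MK-801, and it shares the SCZ libraries with the comparison above, so a low SCZ library moves both in opposite directions. Here 5 of 6 members had higher fitted levels and none passed edgeR's test after adjustment, as for 0% of all genes. DESeq2 and limma voom also called 0 after adjustment and had 4 members each at an unadjusted p under 0.05. With edgeR, 3 members (Fos, Jun and Junb) were higher at an unadjusted p under 0.05, against 3.86% of genes, and 0 were lower, against 3.70%. The ranges of Jun and Junb lay wholly higher in SCZ+c-MSST, 2 of 6 members, against 4.50% of genes; 3.78% lay wholly lower, with no member among them. The median log2 fold change of the members was 0.52, and that of all genes -0.01.

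Junb had the smallest p of the family here, with a log2 fold change of 0.78 (SE 0.23, edgeR adjusted p = 0.421), a fold of 1.71. Fos stood at 0.89 (SE 0.37, edgeR adjusted p = 0.608), Jun at 0.42 (SE 0.20, edgeR adjusted p = 0.646) and Fosl2 at 0.61 (SE 0.31, edgeR adjusted p = 0.681). Fosb stood at 0.37 (SE 0.27, edgeR adjusted p = 0.796). Jund stood at -0.02, with an interval of 2 SE from -0.14 to 0.09. The unadjusted p of Junb was under 0.05 in all 13 alternatives and in all 8 fits that left out 1 library of either group. The count of 3 members was 1 without SCZ replicate 1 or 5 or without SCZ+c-MSST replicate 4 or 5. All 6 excitatory neuron markers were positive in this comparison (median 0.23), all 6 septal markers negative (-1.10) and all 8 choroid plexus and ependymal markers negative (-0.57). With the excitatory neuron score in the model 1 member had a p under 0.05, which was Junb, at 0.69. With scores of the striatal, septal and choroid plexus markers in the model, Fos at 1.14 and Junb at 0.87 had an unadjusted p under 0.05. Fosl2 at 0.75, Jun at 0.45, Fosb at 0.28 and Jund at -0.05 did not, and no member passed after adjustment.

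**Figure D2:**
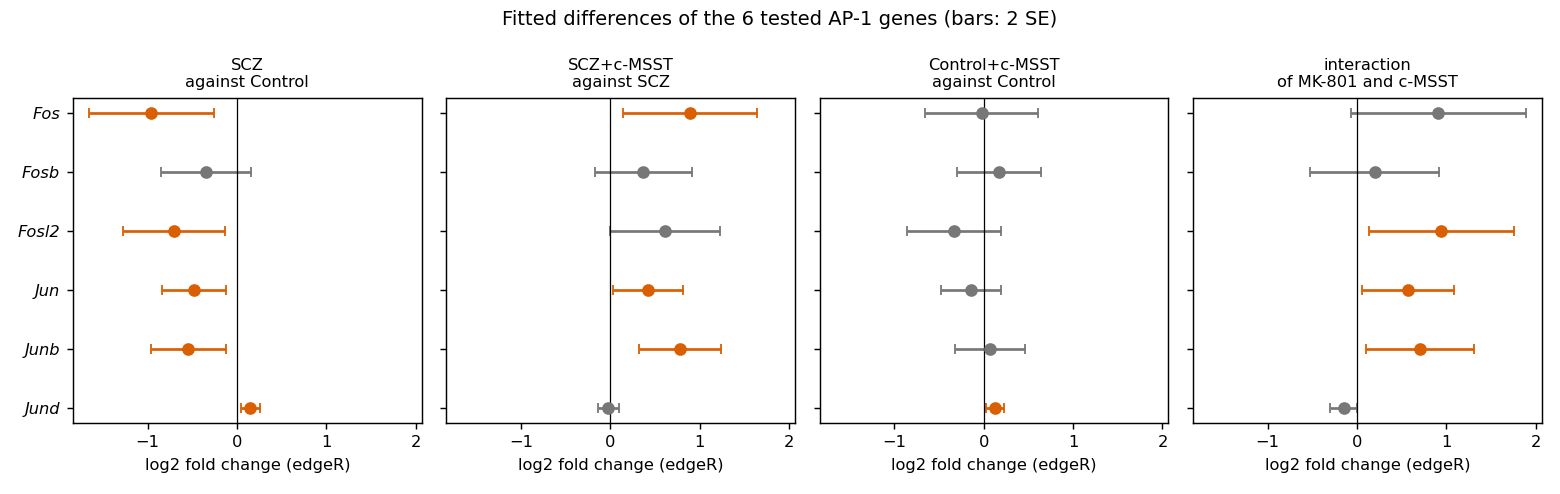
Log2 fold changes of the 6 tested genes from edgeR in 3 comparisons and the interaction; points are estimates, bars span 2 SE on each side, and orange marks an unadjusted p under 0.05. No gene passed after adjustment, and Fos has the lowest estimate in SCZ against Control, at -0.96.

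In saline mice, Control+c-MSST against Control gave log2 fold changes from -0.33 (Fosl2) to 0.17 (Fosb). For all tested members but Jund the intervals were wide and held 0. Fos stood at -0.02 (interval of 2 SE, -0.65 to 0.61), Junb at 0.08 (-0.32 to 0.47), Jun at -0.15 (-0.48 to 0.19), Fosb at 0.17 (-0.29 to 0.64) and Fosl2 at -0.33 (-0.86 to 0.20). These intervals do not show that the levels were alike. Jund stood at 0.13 (SE 0.050, edgeR adjusted p = 0.222), and it was the 1 member at an unadjusted p under 0.05, against 7.86% of genes higher and 8.70% lower. No member was among the 0.329% of genes that passed after adjustment, and DESeq2 and limma voom called none either, with 1 member each at an unadjusted p under 0.05. Jund's unadjusted p was above 0.05 without Control replicate 3 or Control+c-MSST replicate 1, which left 0 members. Markers of other cells moved with this comparison. All 6 oligodendrocyte markers (median log2 fold change -0.56), 7 of 8 choroid plexus and ependymal markers (-2.28), 4 of 6 astrocyte markers (-0.15) and 3 of 6 septal markers (-0.75) were lower at an unadjusted p under 0.05. The oligodendrocyte markers summed to 2259 to 4014 CPM in Control and 904 to 2809 in Control+c-MSST, and the astrocyte markers to 1524 to 1885 and 1443 to 1602, with none of either list at 0 in any library. The part of the oligodendrocyte and astrocyte markers in the result for Jund was not tested. With the regional marker scores in the model, Jund stood at 0.0710 and its unadjusted p was above 0.05.

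The treated MK-801 mice were also set beside each saline group. Against Control+c-MSST, the members ran from -0.15 (Fosb) to 0.23 (Fosl2), with Fos at -0.05 and Junb at 0.16, and 0 had an unadjusted p under 0.05, against 5.46% of genes higher and 5.51% lower. Against Control, Junb stood at 0.23, Fos at -0.07, Fosl2 at -0.10, Jun at -0.06 and Fosb at 0.03. Jund, at 0.12 (edgeR adjusted p = 0.465), was the 1 member with an unadjusted p under 0.05, against 4.37% of genes higher and 5.71% lower. It was above 0.05 without Control replicate 2 or 3 or SCZ+c-MSST replicate 2 or 5. In both comparisons 0% of genes, and 0 members with edgeR, DESeq2 or limma voom, passed after adjustment. DESeq2 and limma voom had 0 members each at an unadjusted p under 0.05 against Control+c-MSST and 1 each against Control. These comparisons share libraries with those above.

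The interaction tests whether the difference made by c-MSST was larger in MK-801 mice than in saline mice. It stood at 0.94 (SE 0.41) for Fosl2, 0.91 (SE 0.49) for Fos, 0.70 (SE 0.30) for Junb, 0.57 (SE 0.26) for Jun, 0.20 for Fosb and -0.15 for Jund. Adjusted p values from edgeR were 0.651 to 0.940, and 0% of all genes passed. At an unadjusted p under 0.05, 3 members (Fosl2, Jun and Junb) were positive, against 3.90% of genes, and 0 negative, against 3.39%. DESeq2 called 0 after adjustment and had 3 at an unadjusted p under 0.05, and limma voom called 0 and had 2. The count was 0 without Control replicates 2 and 3, or without any 1 of Control replicate 2, SCZ replicate 1 and SCZ+c-MSST replicates 4 and 5. It was 1 without Control replicate 3 or Control+c-MSST replicate 7, which was Junb, and 1 without Control+c-MSST replicate 2, which was Jund, at -0.19.

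**Figure D3:**
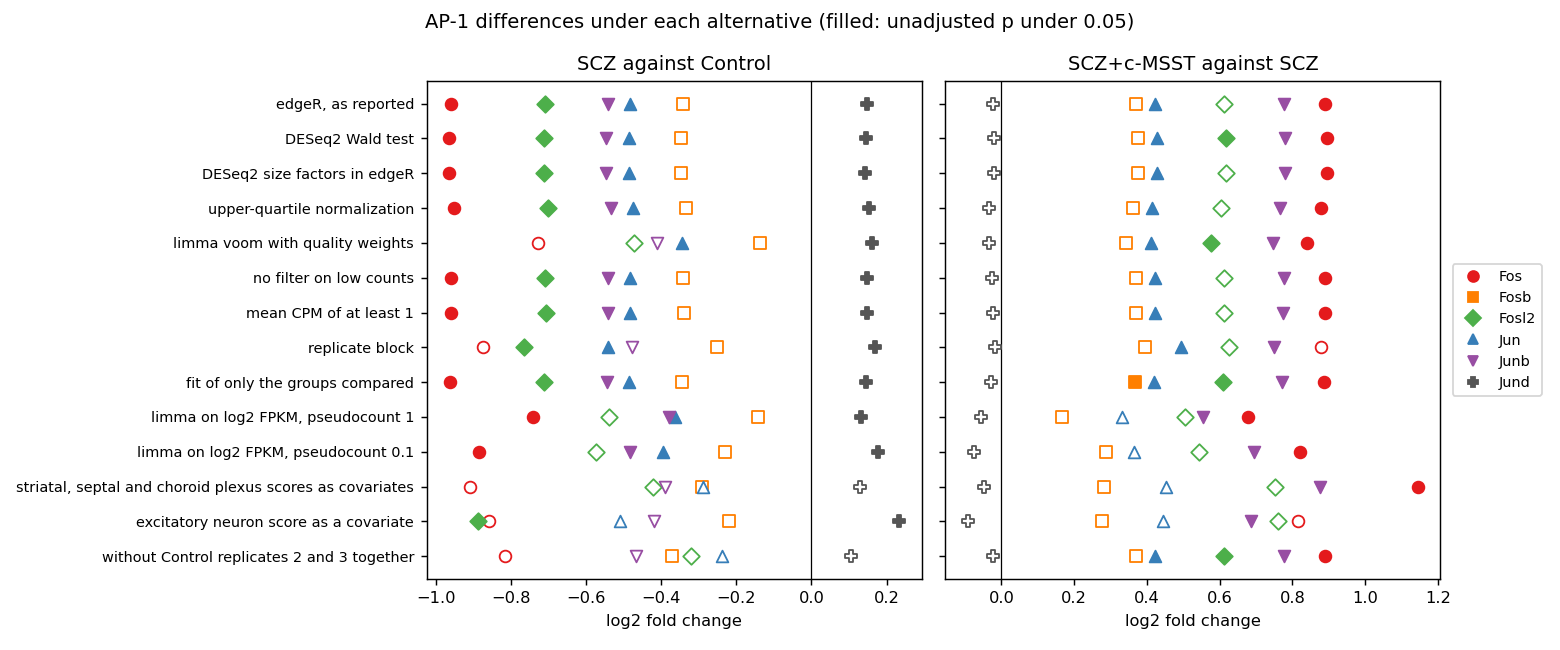
Log2 fold change of each tested gene (x axis) under each way of processing the data (y axis) for SCZ against Control and SCZ+c-MSST against SCZ; filled symbols have an unadjusted p under 0.05. Without Control replicates 2 and 3, the estimates of Fosl2 and Jun in SCZ against Control move to -0.32 and -0.24, while Junb in SCZ+c-MSST against SCZ stays filled throughout.

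The members differed in how much they varied between mice of the same group. The SD within groups, on the log2 CPM scale, was 0.58 for Fos, 0.46 for Fosl2, 0.42 for Fosb, 0.35 for Junb, 0.29 for Jun and 0.080 for Jund, against a median of 0.18 over all tested genes. Set against genes of a like level, the SD stood at percentile 97.5 for Fosl2, 96.9 for Fos, 93.1 for Fosb, 93.0 for Junb and 91.5 for Jun. That of Jund stood at percentile 30.6. Several members varied together across the 19 libraries, which also differ in tissue markers and depth. Fos and Junb had Pearson r of 0.91 (Spearman rho 0.87), 0.91 with group means removed and 0.85 without the 2 libraries farthest from the Fos median. Fosl2 and Jun had r of 0.89 (rho 0.86), 0.86 with group means removed and 0.87 without the 2 farthest. Fos and Fosb had r of 0.80 (rho 0.82), 0.80 with group means removed and 0.78 without the 2 farthest. Fos and Fosl2 had r of 0.79 (rho 0.78), 0.75 with group means removed and 0.73 without the 2 farthest. The remaining pairs without Jund had lower r, such as 0.59 for Jun and Junb (0.41 with group means removed) and 0.50 for Fosb and Jun (0.44). Jund had r of 0.09 with Fos, 0.29 with Fosb, 0.12 with Junb, -0.20 with Jun and -0.20 with Fosl2. With group means removed, these were 0.48, 0.46, 0.39, 0.03 and 0.04. Without the 2 libraries farthest from the median of the other gene, they were -0.0069, 0.21, 0.14, 0.35 and 0.09. That last step changed the sign for Fos, Jun and Fosl2. Those are descriptions over 19 libraries of 4 groups.

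**Figure D4:**
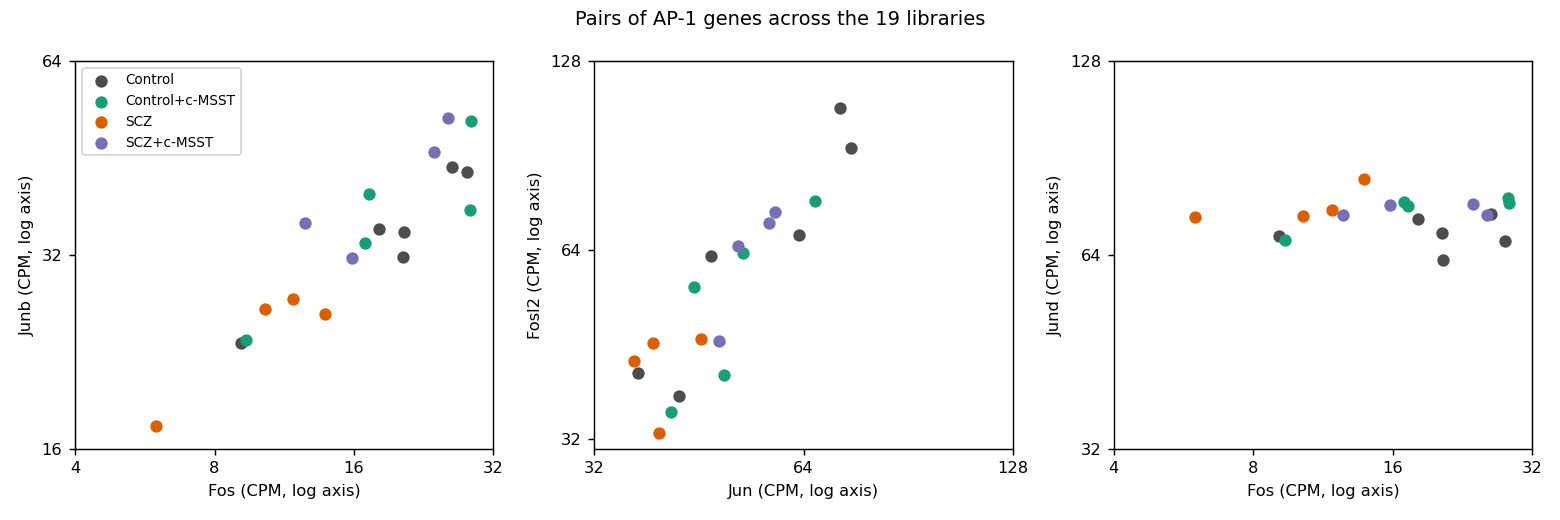
Levels of 3 pairs of AP-1 genes in CPM (both axes log scaled), 1 point a library, coloured by group. Fos and Junb (r = 0.91) and Jun and Fosl2 (r = 0.89) vary together within groups as well as between them, while Fos and Jund have r of 0.09, or 0.48 with group means removed.

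The tested genes with the pattern most like each member were found by Pearson r of log2 CPM over the 19 libraries, among 13738 genes of at least 1 mean CPM. For Fos they were Nr4a1 (0.91), Egr1 (0.90) and Dusp6 (0.89). For Junb they were Nr4a1 (0.94), Btg2 (0.88) and Per1 (0.88), and for Fosb Efnb1 (0.82), Egr4 (0.81) and Egr2 (0.80). For Fosl2 they were Arid5a (0.92), Aph1b (0.88) and Adamts1 (0.86). For Jun they were Arid5a (0.92), Adamts1 (0.88) and Cacna1e (0.87), so 2 of its 3 were also among those of Fosl2. For Jund they were Erf (0.84), Tmem191c (0.80) and Irf2bpl (0.80).

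Other genes around AP-1 were taken as lists, and no list held a gene that passed after adjustment in any comparison. Of 13 other rapid activity-induced transcription factors, 12 were negative in SCZ against Control (median -0.73), with 9 at an unadjusted p under 0.05 lower, against 7.43% of all genes. Setting SCZ+c-MSST against SCZ, 12 were positive (median 0.46), with 5 at an unadjusted p under 0.05 higher and 1 lower, against 3.86% and 3.70% of all genes. Nr4a1, an orphan nuclear receptor induced by activity, stood at 64.1 ± 15.8 CPM in Control (SD, n = 6), 65.3 ± 18.03 in Control+c-MSST (n = 5), 34.1 ± 4.55 in SCZ (n = 4) and 66.4 ± 11.1 in SCZ+c-MSST (n = 4). Its log2 fold change was -0.91 in SCZ against Control (edgeR adjusted p = 0.148) and 0.96 in SCZ+c-MSST against SCZ (edgeR adjusted p = 0.240). Egr1, a zinc finger factor induced through SRF, stood at -0.49 (edgeR adjusted p = 0.249) and 0.21 (edgeR adjusted p = 0.837).

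For the lists that follow, the shares of all genes at an unadjusted p under 0.05 were 6.09% higher and 7.43% lower in SCZ against Control, and 3.86% and 3.70% in SCZ+c-MSST against SCZ. Of 13 factors and coactivators of the Fos promoter, 11 were negative in SCZ against Control (median -0.06, 3 lower at an unadjusted p under 0.05). For SCZ+c-MSST against SCZ, 10 were positive (median 0.07, 2 higher at an unadjusted p under 0.05). Crebbp, the coactivator of CREB, stood at -0.15 and 0.18 in these comparisons, and Mrtfb, a coactivator of SRF, at -0.05 and 0.16. Of 16 upstream kinases, 10 were positive in SCZ against Control (median 0.07, 1 higher and 1 lower at an unadjusted p under 0.05) and 10 in SCZ+c-MSST against SCZ (median 0.04, 0 in either direction). Camk4, a calcium-dependent kinase of CREB, stood at 0.08 and 0.14 in these comparisons. In Control+c-MSST against Control, 15 of the 16 kinases were positive (median 0.08), with 5 higher and 1 lower at an unadjusted p under 0.05, against 7.86% and 8.70% of all genes. In the interaction 11 were negative (median -0.06), with 1 higher and 3 lower, against 3.90% and 3.39%.

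Of 12 AP-1 partners of the ATF, JDP and BATF families, 5 were positive and 7 negative in SCZ against Control (median -0.05, 1 lower at an unadjusted p under 0.05), and 6 and 6 in SCZ+c-MSST against SCZ (0.01, 1 higher). Atf2, which dimerises with Jun, stood at 0.06 and 0.00, and Atf6, a factor of the endoplasmic reticulum stress response, at -0.21 and 0.12. Of 17 neuronal genes with AP-1 sites or FOS dependence, 10 were negative in SCZ against Control (median -0.06, 1 higher and 3 lower at an unadjusted p under 0.05). Of the same 17, 13 were positive in SCZ+c-MSST against SCZ (median 0.08, 1 higher). Gria2, an AMPA receptor subunit, stood at -0.05 and 0.05, and Scg2, a secretogranin of dense-core vesicles, at 0.18 and -0.05.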

How the data were processed

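RNA of 19 left prelimbic cortex samples was sequenced from libraries made with a stranded total RNA kit, per the labels' protocols, and each library took its group from its title. The authors deposited estimated counts per gene, whole as found, and FPKM values scaled to length and depth. The tools named in the submitters' processing notes are StringTie 1.3.5, Picard 2.18.29, STAR 2.7.7a and fastp 0.19.5, with the build mm10; their order, the annotation and use of strand are not given in the sources used here. Differences in the deposited counts were tested with edgeR 4.0.16 in R 4.3.3: filterByExpr left 16417 genes, TMM scaled the libraries, and all 19 libraries entered 1 robust quasi-likelihood fit with the 4 groups as coefficients, tested by glmQLFTest. Benjamini-Hochberg adjustment ran over all tested genes (threshold 0.05), and an SE was derived from the fold change and the F statistic. In simulated data for SCZ against Control over 16417 genes, 178 of 200 genes changed by 1 on the log2 scale were found, with 7 false calls. The changed genes were picked among genes with higher counts. Counts were drawn for each gene apart, without tissue differences shared between genes. The share found therefore does not give the power for the AP-1 members.

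Members, gene lists and tests were chosen with earlier results of these data known. The text names all 7 members, the 2 most abundant genes of each pathway list (none was called, and 1 is not reported here) and the 3 genes most like each tested member. Log2 CPM used a prior count of 2. Group sizes in the design text count mice, so a library was taken as 1 mouse. Library totals were 50140626 to 82416746 counts. Alternatives were DESeq2 1.42.0, its size factors, upper-quartile scaling, limma 3.58.1 voom with quality weights per library, and limma on log2 FPKM. Further ones were other filters, the replicate block, fits of only the groups compared, marker scores as covariates, and libraries left out. The excitatory neuron score was added after marker levels were seen. Replicate numbers are not said to mark shared mice, litters or days, and samples with the same number had correlations of -0.0958 to 0.139 in their deviations from group means, so no pairing was assumed.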

Additional observations from a re-analysis of the deposited data

Results flagged for a closer look

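In 4 of 28 combinations of gene and group, 1 library stood far from the rest by Dixon's criterion at the 95% level, which chance alone passes in about 1 in 20 groups. Junb in SCZ replicate 1 stood at 17.36 CPM, with the nearest other SCZ library at 25.93. Fosb in SCZ+c-MSST replicate 3 stood at 10.33 CPM, with the nearest at 14.99. Jund stood at 67.62 CPM in Control+c-MSST replicate 2, with the nearest at 76.33, and at 84.04 CPM in SCZ replicate 2, with the nearest at 75.10. Without SCZ replicate 1, the log2 fold change of Junb was -0.41 in SCZ against Control (edgeR unadjusted p = 0.0809). Without SCZ replicate 2, that of Jund was 0.0996 in the same comparison (edgeR unadjusted p = 0.0818).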

How the results depend on the processing

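No member passed after adjustment under any alternative, and 864 member values were recomputed. Members at an unadjusted p under 0.05 in SCZ against Control, 5 as reported, were 2 with limma voom, 3 with the replicate block, 0 with striatal, septal and choroid plexus scores, 2 with the excitatory score, 0 without Control replicates 2 and 3, and 2 to 5 with 1 library left out. In SCZ+c-MSST against SCZ, 3 became 5 in the fit of only those groups, 1 with the excitatory score, and 1 to 4 with 1 library left out. In Control+c-MSST against Control, 1 became 0 with the block, with the regional scores and without Control replicates 2 and 3, and 0 to 1 with 1 left out. For SCZ+c-MSST against Control, 1 became 0 with limma on log2 FPKM at either pseudocount (1 or 0.1), with the regional scores and without Control replicates 2 and 3, and 0 to 1 with 1 left out. In the interaction, 3 became 1 with the block and with the regional scores (Junb in both) and 1 with log2 FPKM at either pseudocount (Jund, negative, at -0.20 and -0.27, with none of the 3 reported members), 0 without Control replicates 2 and 3, and 0 to 4 with 1 left out. With the excitatory score, the members at that p in the interaction were Fosl2 and Jund, the latter negative. Upper-quartile scaling kept the 3 reported members and added Jund, at -0.16. The causes were not tested.

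Direction reversed in 64 of the 864 values, in 13 of 36 results, none with an unadjusted p under 0.05 before or after. In Control+c-MSST against Control, the replicate block gave -0.0236 for Fosb and -0.12 for Junb; log2 FPKM gave 0.0257 and 0.0281 for Fos at pseudocounts of 1 and 0.1; regional scores gave 0.0530 for Fos and 0.0487 for Jun; leaving out Control replicates 2 and 3 gave 0.12 for Fos, 0.0607 for Fosl2 and 0.0995 for Jun. In SCZ+c-MSST against Control+c-MSST, limma voom gave 0.15 for Fos and 0.00684 for Jund, a filter of 1 mean CPM 0.00316 for Jund, the block 0.28 for Fos, 0.17 for Fosb and 0.0583 for Jund, regional scores 0.18 for Fos and 0.0115 for Jund, and the excitatory score 0.00348 for Fos and 0.0390 for Jund. With SCZ+c-MSST against Control, limma voom gave 0.11 for Fos, 0.11 for Fosl2 and 0.0688 for Jun, the block 0.00384 for Fos, regional scores 0.24 for Fos, -0.00876 for Fosb, 0.33 for Fosl2 and 0.16 for Jun, and leaving out Control replicates 2 and 3 0.0748 for Fos, -0.00066 for Fosb, 0.29 for Fosl2 and 0.18 for Jun. With 1 library left out, Jund ran from -0.0445 to 0.0236 in SCZ+c-MSST against SCZ and from -0.0403 to 0.0115 in SCZ+c-MSST against Control+c-MSST. Fos ran from -0.18 to 0.16 and Junb from -0.0722 to 0.20 in Control+c-MSST against Control, and Fos from -0.23 to 0.11 in SCZ+c-MSST against Control+c-MSST. When SCZ+c-MSST was set against Control, Fos ran from -0.23 to 0.0896, Fosb from -0.0968 to 0.21, Fosl2 from -0.22 to 0.0820 and Jun from -0.16 to 0.0407.

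Samples of the same number did not deviate together, and 2 of 18 libraries correlated best with a library of their own number. Genes called over the whole table depended on the tool: DESeq2 called 571 genes in saline mice for c-MSST against none, where edgeR called 54. In the comparisons where edgeR called 0, DESeq2 called 242 in SCZ against Control, 62, 80 and 90 in SCZ+c-MSST against SCZ, Control+c-MSST and Control, and 38 in the interaction. Fosl1 was filtered out for low counts.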
